A study of Mus musculus with 30 samples.

Results

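Messenger RNA levels in the lung were set against those in the spleen of wild type mice 6 h after lipopolysaccharide (LPS), gene by gene. The lung group was wild type C57BL/6 mice aged 8 weeks, given LPS at 20 mg/kg into the peritoneum, with 3 libraries. The spleen group had the same genotype, strain, age, dose and time, with 3 libraries of its own. Beside them stand wild type mice of the same strain and age with PBS (2 libraries per tissue). Mice labelled lincRNA-Cox2 mutant or lincRNA-Cox2 knockout had, in each tissue, 3 libraries of each genotype with LPS and 2 with PBS. These mice were also 8 weeks old, and their LPS dose and time were 20 mg/kg and 6 h. How either allele was made is not given in the sources used here, nor is which lung and spleen came from 1 animal, or whether the libraries of a group are separate animals. The authors' tables hold 1 mean per group, so no spread between libraries is known and no comparison of the tissues below has a test. The lung and the spleen table were normalized apart, so each group mean was first scaled to a sum of 1000000 over its table. A level is therefore in normalized counts out of 1000000, written CPM below. The tables together list 20167 entries, of which both list 18148, and 12547 of those, with 5 or more CPM in at least one tissue, were compared. Just inside this limit lay Hyls1, with 2.51 CPM in lung and 5.01 in spleen, and just outside it Nebl, with 5.00 CPM in lung and listed at 0 in spleen. Each ratio is the log2 of lung over spleen after adding 1 CPM to each, which understates the difference of low genes. A gene at least 2-fold apart is called higher in that tissue. A gene under 5 CPM in 1 tissue was kept through the other alone. Where its value there is also low, its side says little.

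LPS, a component of the outer membrane of Gram-negative bacteria, is sensed by Toll-like receptor 4 with CD14 and MD-2. The receptor signals through MyD88 to NF-kB, which switches on cytokine and chemokine genes, and through TRIF to interferon beta, which switches on interferon-stimulated genes in the whole organ. The lung is built of gas-exchanging epithelium and a dense capillary bed in which neutrophils gather during endotoxaemia. The spleen is built of white pulp, where B and T cells sit, and red pulp, where macrophages take up old red cells and, in mice, new blood cells are made.

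Library depth is not in the tables. The sums of the normalized counts were 10003600 for the lung group and 4692790 for the spleen group, so that 5 CPM stands for 50.02 and 23.46 normalized counts. The 50 highest entries took 11.7% of the lung sum and 14.1% of the spleen sum, hemoglobin genes took 0.487% and 2.48%, and cytosolic ribosomal protein genes took 1.85% and 7.23%. The labelled tissues were checked against defining markers. Sftpc, a surfactant protein gene, had 3539 CPM in lung and 72.0 CPM in spleen, and Ager, a receptor of alveolar type 1 cells, had 1199.6 CPM in lung and 18.9 CPM in spleen. Scgb1a1, the secretoglobin of club cells, had 2419 CPM in lung and 168 CPM in spleen. Ms4a1, a surface protein of B cells, had 9.46 CPM in lung and 93.8 CPM in spleen, and Spic, the transcription factor of red pulp macrophages, had 19.4 CPM in lung and 156 CPM in spleen. All 8 checked markers, which include Sftpb and Cd79a, were at least 2-fold higher in the tissue they mark. Sftpc and Scgb1a1 were also listed in spleen, there with 80.2 and 179 CPM in the PBS group, and the source of these reads was not tested.

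The tissues were at least 2-fold apart in 5675 entries (45.2%). Of these 3089 entries (24.6% of all) were higher in lung and 2586 (20.6% of all) in spleen, and 592 (4.72%) and 295 (2.35%) were at least 8-fold higher. The shares of 24.6% and 20.6% are to be set beside every list count below. The median log2 ratio was 0.027, with quartiles of -0.82 and 0.98 and extremes of -9.32 and 6.99. The direction of a modest ratio rests on the scaling. Of the entries at least 2-fold apart, 54.4% were higher in lung after scaling to equal sums and 87.0% when the deposited means were left as they are, and the median ratio was then 1.11. For this reason lists of genes with a median under 2-fold are given below by their values and counts, with no direction. With the unscaled means 4 lists past 2-fold on the spleen side kept their sign and came within 2-fold. They were class II antigen presentation, ribosomal proteins, spleen stroma and checkpoint genes, with medians of -0.65, -0.76, -0.47 and -0.68. No list past 2-fold changed sign under any of the 9 alternatives tried.

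**Figure D1:**
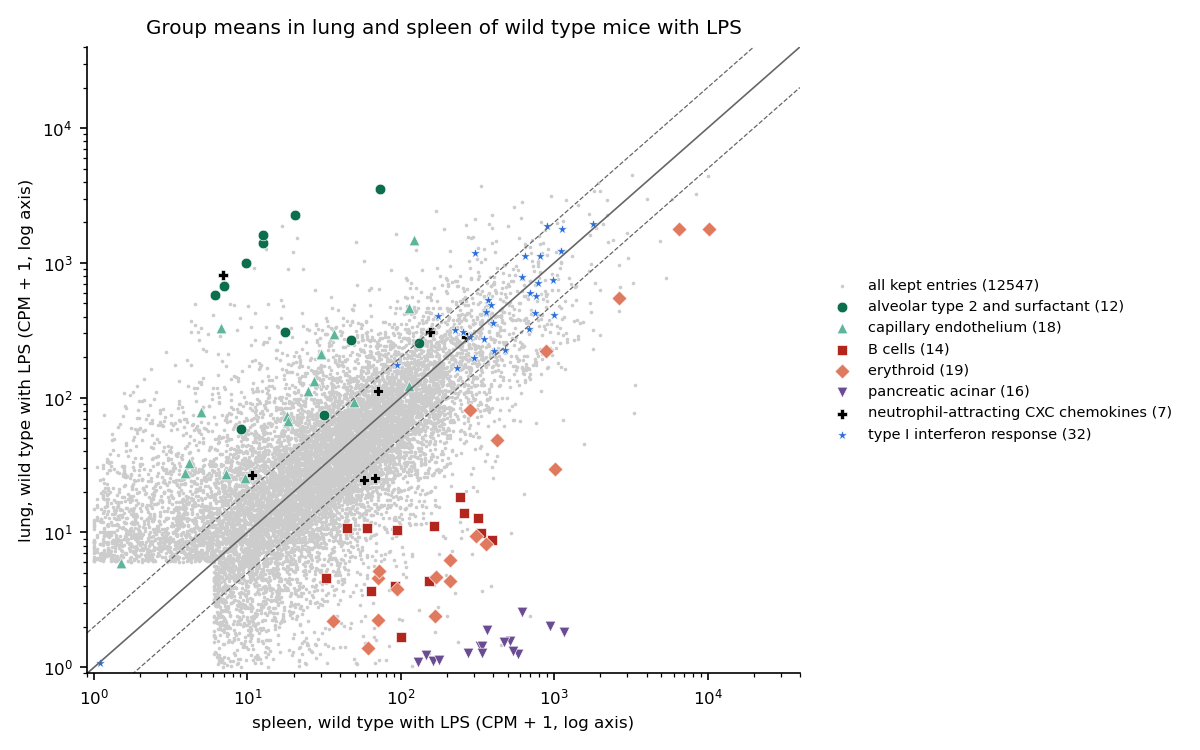
Lung group mean (vertical) against spleen group mean (horizontal) of the 12547 entries in wild type mice with LPS, both CPM plus 1 on log axes. The solid line marks equal levels and the dashed lines 2-fold. Surfactant genes lie far above the lines, pancreatic enzyme, B cell and erythroid genes far below, and interferon-response genes around the line of equal levels.

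The 10 largest lung over spleen ratios among genes with 100 or more CPM belonged mainly to alveolar and airway epithelium. Slc34a2, the phosphate transporter of alveolar type 2 cells, led with 1609 CPM in lung and 11.7 CPM in spleen, a log2 ratio of 6.99. Cxcl15, a chemokine of airway epithelium also called lungkine, had 813 CPM in lung and 5.97 CPM in spleen, a log2 ratio of 6.87. Lyve1, a hyaluronan receptor of lymphatic endothelium, had 1879 CPM in lung and 15.7 CPM in spleen, a log2 ratio of 6.81. The other 7 were Sftpb, Sftpa1, Cyp2b10, Sftpd, Cldn18, Cyp2f2 and Lamp3, with log2 ratios of 6.55 (Lamp3) and upward. They encode surfactant proteins, cytochrome P450 enzymes of the airway, a claudin of alveolar junctions and a membrane protein of lamellar bodies. Lyve1 differed from the rest of the 10 in its PBS values: it had 337 CPM in lung and 23.2 in spleen with PBS, a log2 ratio of 3.80, while the other 9 had PBS ratios between 6.11 (Lamp3) and 7.15 (Cldn18).

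Alveolar type 2 cells make surfactant, the film that keeps alveoli open. Of 12 genes of these cells 11 were at least 2-fold higher in lung, against 24.6% of all entries, and the median log2 ratio was 6.07. In bulk tissue, fewer cells of a type and less RNA per cell cannot be told apart, here and below. Sftpa1, a collectin of the film, had 2259 CPM in lung and 19.4 CPM in spleen, a log2 ratio of 6.79. The exception was Napsa, a protease that processes surfactant protein B, with 255 CPM in lung and 131 CPM in spleen, a log2 ratio of 0.95. All 10 genes of alveolar type 1 cells, the thin cells of gas exchange, were at least 2-fold higher in lung, with a median of 4.87. Among these Emp2, a tetraspan membrane protein, had 899.7 CPM in lung and 17.4 CPM in spleen, and Clic5, an intracellular chloride channel protein, 629 CPM in lung and 26.4 CPM in spleen. Pdpn, podoplanin, had the lowest ratio of the list, 3.25.

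Airway genes were on the lung side too. Of 10 secretory airway genes 9 were at least 2-fold higher in lung (median 5.53), and of 10 genes of ciliated cells 10 were (median 3.87). Cyp2f2, a P450 enzyme of club cells, had 1259.5 CPM in lung and 12.3 CPM in spleen, a log2 ratio of 6.57. Sec14l3, a lipid-binding protein of ciliated cells, had 918 CPM in lung and 9.95 CPM in spleen, a log2 ratio of 6.39. The secretory gene within 2-fold was Reg3g, an antibacterial lectin, with 55.3 CPM in lung and 35.2 CPM in spleen. In the PBS groups Reg3g had 24.4 CPM in lung and 0.433 in spleen, so its small ratio with LPS stood beside a higher spleen level than with PBS.

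The start of Sftpb is shown because Nkx2-1, the transcription factor that drives surfactant genes, binds cores of the letters CTCAAG, marked in capitals. The stretch runs from 120 to 45 bases before the RefSeq start on the plus strand, at chr6:72304490-72304565 of GRCm38.p6.
Sftpb: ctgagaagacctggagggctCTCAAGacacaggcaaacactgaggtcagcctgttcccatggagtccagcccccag
A further CTCAAG lay 15 bases before the start. On either strand these letters were in the 250 bases before the start of 2 of 9 alveolar type 2 genes with a promoter in the RefSeq table, Sftpa1 and Sftpb, and in 13.6% of all 27025 promoters there. In genes at least 8-fold higher in lung the share was 12.7% (52 of 411). Nkx2-1 itself had 121 CPM in lung and 0.899 CPM in spleen, a log2 ratio of 6.00.

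The next list holds transcription factors picked as marks of organ identity, so a split by organ was built into it. Of 29 factors 18 were at least 2-fold higher in lung and 9 at least 2-fold higher in spleen, and 1 was under 5 CPM in both tissues. Pax5, the commitment factor of B cells, had the lowest ratio, with 3.40 CPM in lung and 152 CPM in spleen, a log2 ratio of -5.12. Ikzf1, the lymphoid factor Ikaros, had 89.0 CPM in lung and 245 CPM in spleen, and Klf2, a factor of endothelium under flow, had 274 CPM in lung and 102 CPM in spleen. Tlx1, the homeobox gene needed to form a spleen, was the factor under the limit: it was listed at 0 in lung and had 3.56 CPM in spleen, against 0 and 52.0 CPM in the PBS lung and spleen.

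Channels and enzymes of the airspace were higher in lung too. Of 11 genes of alveolar fluid clearance 10 were at least 2-fold higher in lung, with a median log2 ratio of 3.64. Scnn1a, the alpha subunit of the epithelial sodium channel, had 348 CPM in lung and 3.58 CPM in spleen, a log2 ratio of 6.25. Atp1b1, the beta subunit of the sodium pump, had 528 CPM in lung and 15.5 CPM in spleen, a log2 ratio of 5.00. Of 20 antioxidant and detoxification genes 14 were at least 2-fold higher in lung and 1 in spleen. Cyp2b10, a P450 enzyme, had 495 CPM in lung and 3.56 CPM in spleen, a log2 ratio of 6.77. Gpx1, the glutathione peroxidase of red cells and other tissues, was the one higher in spleen, with 159.9 CPM in lung and 654 CPM in spleen.

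Endothelial genes were higher in lung, and lower with LPS than with PBS in both organs. Of 18 capillary genes 15 were at least 2-fold higher in lung with LPS, with a median log2 ratio of 2.24, against 2.97 with PBS. Cdh5, the adhesion molecule VE-cadherin, had 1469.5 CPM in lung and 121 CPM in spleen, one of the 3 highest means of the list. Car4, the carbonic anhydrase on alveolar capillaries, had 327 CPM in lung and 5.69 CPM in spleen, a log2 ratio of 5.62. Plvap, the diaphragm protein of fenestrated vessels, was near equal, with 121 CPM in lung and 112 CPM in spleen. At least 2-fold lower with LPS than with PBS were 14 of 18 in lung, against 15.5% of all entries, and 11 in spleen, against 18.7%. The median log2 ratio of LPS over PBS was -2.35 in lung and -1.18 in spleen.

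Of 6 lymphatic endothelium genes 5 were at least 2-fold higher in lung, and Prox1, the master factor of lymphatic endothelium, was higher in spleen, with 1.18 CPM in lung and 5.07 CPM in spleen. Flt4, the receptor of lymphatic growth factors, had 43.8 CPM in lung and 19.9 CPM in spleen, a log2 ratio of 1.10. Mmrn1, a multimerin of lymphatic vessels and platelets, had 28.9 CPM in lung and 7.78 CPM in spleen, a log2 ratio of 1.77, and Reln, reelin, 9.78 CPM in lung and 4.35 CPM in spleen. Pdpn, which lymphatic and alveolar type 1 cells share, had 269 CPM in lung and 27.3 CPM in spleen. So the list was split: Lyve1 and Pdpn were more than 8-fold higher in lung, and Prox1 was higher in spleen. Prox1 passed the limit of 5 CPM through its spleen value alone and Reln through its lung value alone. The side of either gene therefore says little.

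Matrix genes of fibroblasts were higher in lung in 14 of 17 cases, with a median of 1.98. Col4a1 and Col4a2, the chains of basement membrane collagen, had 1.92 and 1.85 as log2 ratios, and Col4a1 had 1889 CPM in lung and 499 CPM in spleen. Inmt, a methyltransferase abundant in lung stroma, had 285 CPM in lung and 5.58 CPM in spleen, the largest ratio of the list at 5.44. Dcn, decorin, was near equal with 204 CPM in lung and 168 CPM in spleen. Contractile genes lay closer together. Of 10 genes of smooth muscle and pericytes 4 were at least 2-fold higher in lung and 0 in spleen. Postn, periostin, had 336 CPM in lung and 14.9 CPM in spleen, and Acta2, smooth muscle actin, 143 CPM in lung and 273 CPM in spleen, a log2 ratio of -0.93.

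Vasoactive genes were counted next. Of 14 genes of endothelin, angiotensin and adrenomedullin signalling 9 were at least 2-fold higher in lung and 0 in spleen, and 2 were under 5 CPM in both. Ace, the angiotensin-converting enzyme on lung capillaries, had 247 CPM in lung and 9.50 CPM in spleen, a log2 ratio of 4.56. With PBS Ace had 1174 CPM in lung and 45.5 in spleen, so both organs were lower with LPS. Edn1, the vasoconstrictor endothelin 1, had 159 CPM in lung and 29.0 CPM in spleen, a log2 ratio of 2.42.

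On the other side stood the lymphocytes. All 14 B cell genes and all 19 measured T cell genes were at least 2-fold higher in spleen, against 20.6% of all entries, with median log2 ratios of -4.16 and -3.20. Cd79a, the signalling chain of the B cell receptor, had 7.73 CPM in lung and 390.0 CPM in spleen, a log2 ratio of -5.49. Cr2, complement receptor 2 of B cells and follicular dendritic cells, had 0.668 CPM in lung and 99.3 CPM in spleen, a log2 ratio of -5.91. Fcer2a, the low-affinity IgE receptor, was the B cell gene with the smallest difference, -2.07. Among T cell genes Cd3e, a chain of the T cell receptor complex, had the lowest ratio, with 2.45 CPM in lung and 55.0 CPM in spleen, and Il7r, the interleukin 7 receptor, the highest, with 23.5 CPM in lung and 49.7 CPM in spleen, a log2 ratio of -1.05. With the deposited means left unscaled the ratio of Il7r was 0.012, so its side depends on the scaling. Ccr7, which guides T cells and dendritic cells into lymphoid zones, had 60.8 CPM in lung and 467 CPM in spleen, and Tcf7, a factor of resting T cells, 12.7 CPM in lung and 118 CPM in spleen.

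Plasma cell genes gave a mixed picture. Of 9 measured, 5 were at least 2-fold higher in spleen, 2 at least 2-fold higher in lung and 1 was under 5 CPM in both. Jchain, the joining chain of secreted antibodies, had 9.55 CPM in lung and 268 CPM in spleen, a log2 ratio of -4.68. Mzb1, a chaperone of antibody assembly, had 1.39 CPM in lung and 20.0 CPM in spleen. The 2 genes higher in lung were Sdc1, a proteoglycan that epithelium shares, with 188 CPM in lung and 10.2 CPM in spleen, and Xbp1, a factor of secretory cells in general, with 459 CPM in lung and 128 CPM in spleen. Ighg, a constant region of immunoglobulin G, had 1.41 CPM in lung and 200.1 CPM in spleen, and Irf4, a factor of plasma cells and activated lymphocytes, 15.3 CPM in lung and 116 CPM in spleen. Derl3, a protein of the degradation pathway in the endoplasmic reticulum, had 1.35 CPM in lung and 9.61 CPM in spleen, and Prdm1, the factor Blimp-1, was within 2-fold with 26.5 CPM in lung and 32.0 CPM in spleen.

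Antigen presentation genes differed by class. Of 10 class II genes 8 were at least 2-fold higher in spleen (median -1.73), and of 14 class I genes 1 was (median -0.39). Cd74, the invariant chain, had 1079.6 CPM in lung and 3026 CPM in spleen, and H2-Aa, a class II alpha chain, 339 CPM in lung and 857 CPM in spleen. H2-Oa, an inhibitor of peptide loading in B cells, had the lowest ratio, with 1.22 CPM in lung and 54.1 CPM in spleen. Ciita, the class II master regulator, was near equal, with 42.9 CPM in lung and 45.2 CPM in spleen. In class I, B2m, beta 2 microglobulin, had 1949 CPM in lung and 2084 CPM in spleen, and H2-K1, a heavy chain, 1469.5 CPM in lung and 2408 CPM in spleen. Reads of H2 genes can be shared between near-identical copies.

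Natural killer and cytotoxic genes lay closer together. Of 13 measured 4 were at least 2-fold higher in spleen, 0 in lung, and 3 were under 5 CPM in both. The median was -0.89, against -2.46 with PBS. Mutant and knockout mice with PBS had medians of -0.98 and -1.76. Gzmb, granzyme B, had 97.3 CPM in lung and 173 in spleen with LPS, against 4.90 and 28.8 CPM in the PBS lung and spleen. It was thus higher with LPS in both organs. Tbx21, the factor T-bet, had 4.65 CPM in lung and 66.3 CPM in spleen, the lowest ratio at -3.57, and Klrb1c, the receptor NK1.1, 10.4 CPM in lung and 7.99 CPM in spleen.

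Red pulp macrophages recycle iron from red cells. Of 15 genes of these cells 6 were at least 2-fold higher in spleen and 1 in lung, with a median of -0.51, against -2.57 with PBS. Blvrb, biliverdin reductase B, had the lowest ratio, with 14.8 CPM in lung and 169 CPM in spleen, a log2 ratio of -3.43. Vcam1, an adhesion molecule that these macrophages share with activated endothelium, had 459 CPM in lung and 198 in spleen with LPS, against 118 and 612 CPM in the PBS lung and spleen. It was the 1 member at least 2-fold higher in lung. Fth1, the heavy chain of ferritin, had 2269 CPM in lung and 2195 CPM in spleen, and Ftl1, the light chain, 692 CPM in lung and 1281 CPM in spleen. Slc40a1, ferroportin, which exports iron, had 6.00 CPM in lung and 14.2 in spleen with LPS, against 16.3 and 503 CPM in the PBS lung and spleen. Hmox1, heme oxygenase 1, had 191 CPM in lung and 273 in spleen with LPS, against 41.9 and 651 CPM in the PBS lung and spleen. Both were therefore lower in spleen with LPS than with PBS, and Slc40a1, Hmox1 and Spic were singled out after their values were seen.

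Macrophages of the airspace and of the marginal zone share some markers. Marco, a scavenger receptor of marginal zone and alveolar macrophages, had 36.0 CPM in lung and 424 CPM in spleen, a log2 ratio of -3.52. Of 12 alveolar macrophage genes 7 were at least 2-fold higher in lung and 1, Marco, in spleen. Their median was 1.06, against 0.18 with PBS. Mutant and knockout mice had medians of 0.58 and 0.96 with LPS and 1.27 and 0.13 with PBS. Krt79, a keratin listed for these macrophages, had 10.2 CPM in lung and 0.234 CPM in spleen, and Chil3, a chitinase-like protein that neutrophils share, 534 CPM in lung and 156 CPM in spleen. The 6 marginal zone macrophage genes had a median of -0.35, and 2 of them were under 5 CPM in both tissues. Colec12, a scavenger receptor that endothelium shares, had 92.2 CPM in lung and 18.2 CPM in spleen, and Siglec1, the sialic acid receptor of marginal metallophilic macrophages, 23.3 CPM in lung and 17.6 CPM in spleen. Nr1h3, the oxysterol receptor that marginal zone macrophages need, had 66.0 CPM in lung and 69.5 CPM in spleen.

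Dendritic cell genes had a median of -0.28, with 6 of 14 at least 2-fold higher in spleen, 1 in lung and 5 under 5 CPM in both. Ly6d, a marker that B cells share, had 8.07 CPM in lung and 245 CPM in spleen, and Esam, an adhesion molecule that endothelium shares, 346 CPM in lung and 45.6 CPM in spleen. Bst2, tetherin, a marker of plasmacytoid cells that interferon induces elsewhere, had 226 CPM in lung and 479 CPM in spleen. Spleen stroma genes had a median of -1.54, with 7 of 13 at least 2-fold higher in spleen and 3 in lung. Madcam1, the addressin of marginal sinus vessels, had 0.0767 CPM in lung and 22.8 CPM in spleen, a log2 ratio of -4.47. Cxcl12, a retention chemokine of stroma, had 50.7 CPM in lung and 294 CPM in spleen, Cxcl13, the B cell chemokine of follicles, 49.7 CPM in lung and 157 CPM in spleen, and Ccl19, the T zone chemokine, 61.8 CPM in lung and 182 CPM in spleen. With PBS the log2 ratios of Cxcl13 and Ccl19 were -4.77 and -4.57, against -1.64 and -1.54 with LPS.

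Genes of red cell production were higher in spleen. All 19 measured erythroid genes were at least 2-fold higher in spleen, with a median of -4.65. Hba-a2, an alpha globin, had 1788 CPM in lung and 10292 CPM in spleen, a log2 ratio of -2.52, and Hbb-bs, a beta globin, 1769 CPM in lung and 6521 CPM in spleen. Globin reads also come from circulating cells and may be shared between near-identical copies. Car1, carbonic anhydrase 1 of red cells, had 1.42 CPM in lung and 166 CPM in spleen, a log2 ratio of -6.11. Klf1, the erythroid transcription factor, had 0.388 CPM in lung and 60.1 CPM in spleen, and Slc4a1, the anion exchanger of the red cell membrane, 28.5 CPM in lung and 1019 CPM in spleen. Klf1 and Slc4a1 were singled out after their values were seen.

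Alas2, the first enzyme of heme synthesis in red cells, had 221 CPM in lung and 884 CPM in spleen. Its start is shown because GATA1 binds the letters AGATAA, in capitals here on the opposite strand as TTATCT. The stretch runs from 120 to 45 bases before the RefSeq start on the plus strand, at chrX:150547297-150547372 of GRCm38.p6.
Alas2: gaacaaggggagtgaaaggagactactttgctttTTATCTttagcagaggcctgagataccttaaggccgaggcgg
AGATAA on either strand was in the 250 bases before the start of 5 of 13 erythroid genes with a promoter in the table, in 5.91% of the promoters of kept entries (544 of 9204), in 10.3% of all promoters and in 12.4% of those of genes at least 8-fold higher in spleen (22 of 178). The letters were not particular to erythroid genes: they were also in 5 of 13 pancreatic acinar genes and in 4 of 10 interferon-induced GTPase genes with a promoter in the table.

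Genes of division and of ribosomes were higher in spleen as well. Of 26 cell cycle genes 24 were at least 2-fold higher in spleen and 0 in lung, with a median of -2.53. Mki67, the proliferation antigen Ki-67, had 67.3 CPM in lung and 1136 CPM in spleen, a log2 ratio of -4.06, and Top2a, topoisomerase 2 alpha, 46.9 CPM in lung and 264 CPM in spleen. Plk1, a mitotic kinase, had the highest ratio, -0.79. Of 20 ribosomal protein genes 19 were at least 2-fold higher in spleen, with a median of -1.85, against -1.18 with PBS. In mutant mice the medians were -1.64 with LPS and -1.61 with PBS, and in knockout mice -1.18 and -1.92. Rpsa had 665 CPM in lung and 2685 CPM in spleen, Rplp2 had the lowest ratio at -2.87, and Rps4x the highest at -0.90. Their summed level was 7075 CPM in lung and 24866 in spleen with LPS, against 8098 and 17681 CPM in the PBS lung and spleen. With the deposited means unscaled Rps4x came to lie on the lung side, at 0.20. Reference genes were not all even: of 15, 4 were at least 2-fold higher in spleen, Actb, Tfrc and Rpl13a among them, and all 4 kept a negative ratio with the unscaled means. Actb, beta actin, had 3239 CPM in lung and 8374 CPM in spleen, while Eef1a1, an elongation factor, had 2959 CPM in lung and 4049 CPM in spleen and Sdha, a subunit of succinate dehydrogenase, 169 CPM in lung and 112 CPM in spleen.

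The largest differences of all were genes of another organ. The 10 lowest ratios among genes with 100 or more CPM, and all 16 genes of a list of pancreatic acinar enzymes, were higher in spleen, with a list median of -7.89. Ctrb1, chymotrypsinogen B, had 0.811 CPM in lung and 1153 in spleen with LPS, against 24.4 and 46.4 CPM in the PBS lung and spleen, a log2 ratio with LPS of -9.32. Pnlip, pancreatic lipase, had 1.03 CPM in lung and 944 in spleen with LPS, against 20.2 and 92.5 CPM in the PBS lung and spleen. Cela1, an elastase, had 1.59 CPM in lung and 614 CPM in spleen, and Zg16, a protein of zymogen granules, the highest ratio of the list at -6.88. In wild type mice the spleen mean was thus higher with LPS and the lung mean lower, and both PBS organs held some of these transcripts. The 10 lowest were Ctrb1, Pnlip, Cela3b, Cpa1, Cela2a, 2210010C04Rik, Amy2a5, Amy2a4, Cel and Cela1, in that order. The list's summed level was 7.99 CPM in lung and 7063 in spleen with LPS, against 173 and 709 CPM in the PBS lung and spleen. In mutant mice with LPS the sums were 9.08 CPM in lung and 10199 in spleen, and in knockout mice with LPS 28.3 CPM in lung and 4189.6 in spleen. Mutant mice with PBS had 11.8 CPM in lung and 11354 in spleen, so a high spleen sum was listed with PBS too. Acinar cells belong to neither organ, and the part of pancreatic tissue in the spleen libraries was not tested. Trypsin and amylase genes are near-identical copies whose reads may be shared.

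Markers of 2 more organs were measured. Of 16 hepatocyte genes 8 were under 5 CPM in both tissues, 2 were at least 2-fold higher in lung and 2 in spleen. Alb, albumin, had 24.2 CPM in lung and 25.8 in spleen with LPS, against 47.4 and 239 CPM in the PBS lung and spleen, and the list's sums were 121 CPM in lung and 112 in spleen with LPS, against 129 and 747 CPM in the PBS lung and spleen. Fgg, the gamma chain of fibrinogen, had 26.2 CPM in lung and 6.46 CPM in spleen, and Tat, tyrosine aminotransferase, 13.6 CPM in lung and 2.39 CPM in spleen, the 2 higher in lung. Apoa1, an apolipoprotein, had 1.79 CPM in lung and 8.20 CPM in spleen, and Mup20, a major urinary protein, 1.84 CPM in lung and 5.22 CPM in spleen, the 2 higher in spleen. Apoa1 and Mup20 passed the limit of 5 CPM through spleen alone and Tat through lung alone, so their sides say little. Fga, Fgb and Cyp2e1, 2 fibrinogen chains and a P450 enzyme, were within 2-fold, with log2 ratios of 0.30, 0.28 and -0.74. Of 11 cardiac muscle genes 9 were at least 2-fold higher in lung, and 2 were under 5 CPM in both. Pulmonary veins carry heart muscle in mice, but the source of these transcripts was not tested. Myh6, the alpha heavy chain of cardiac myosin, had 56.6 CPM in lung and 1.16 CPM in spleen, and Tnnt2, cardiac troponin T, 41.6 CPM in lung and 17.0 CPM in spleen.

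**Figure D2:**
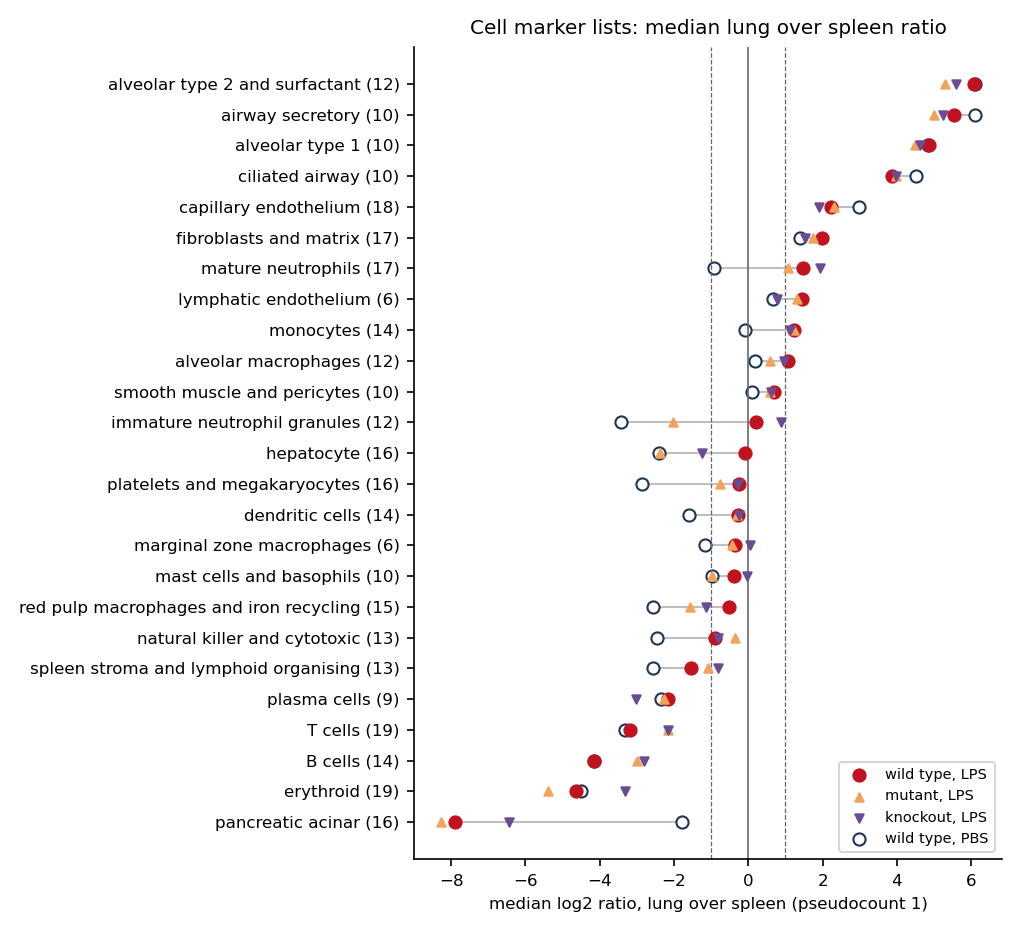
Median log2 ratio of lung over spleen for 25 lists of cell markers (number of measured genes in brackets), in wild type mice with LPS, in mutant and knockout mice with LPS, and in wild type mice with PBS. A median right of 0 is higher in lung. The 4 epithelial lists lie right of 3 and the B cell, T cell and erythroid lists left of -2 in all 4 groups shown, whereas the immature and mature neutrophil, platelet, red pulp macrophage, acinar and hepatocyte lists have medians more than 2 apart between LPS and PBS in wild type mice.

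Chemokines that draw neutrophils were mostly higher with LPS, at levels that differed by organ and gene. Of 7 CXC genes 2 were at least 2-fold higher in lung and 2 in spleen, and at least 2-fold higher with LPS than with PBS were 6 in lung (9.48% of all entries were) and 4 in spleen (7.01%). Cxcl1 had 281 CPM in lung and 266 in spleen with LPS, against 2.54 and 5.98 CPM in the PBS lung and spleen, a log2 ratio of 0.076 with LPS. Cxcl2 had 306 CPM in lung and 155 in spleen with LPS, against 1.82 and 4.11 CPM in the PBS lung and spleen, a log2 ratio of 0.98. Cxcl3 had 25.9 CPM in lung and 9.72 in spleen with LPS, against 0.0565 and 0.590 CPM in the PBS lung and spleen, a log2 ratio of 1.33. All 3 are ligands of Cxcr2, the receptor of neutrophils. Cxcl5, a further Cxcr2 ligand, was higher in spleen, with 23.3 CPM in lung and 56.3 in spleen with LPS, against 0.483 and 4.68 CPM in the PBS lung and spleen. Cxcl15 had 813 CPM in the LPS lung and 787 in the PBS lung, within 2-fold. The platelet chemokines Pf4 and Ppbp had 24.3 CPM in lung and 66.7 CPM in spleen, and 111 CPM in lung and 69.9 CPM in spleen.

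Cxcl3, Cxcl15, Cxcl1 and Cxcl2 lie in this order in 1 cluster on chromosome 5 (GRCm38), Cxcl15 at chr5:90794534-90803067. The starts of Cxcl1, Cxcl2 and Cxcl3 are shown because each holds letters of the kind that NF-kB binds, in capitals. The letters are GGGA, any letters at the next 2 places (NN), then TTCC. Cxcl5, also higher with LPS in both organs, had no promoter to search. Each stretch runs from 120 to 45 bases before the RefSeq start on the plus strand of GRCm38.p6, at chr5:90891125-90891200, chr5:90903779-90903854 and chr5:90785981-90786056.
Cxcl1: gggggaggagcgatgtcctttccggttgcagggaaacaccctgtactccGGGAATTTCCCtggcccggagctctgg
Cxcl2: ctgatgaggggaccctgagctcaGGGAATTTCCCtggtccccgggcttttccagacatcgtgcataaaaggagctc
Cxcl3: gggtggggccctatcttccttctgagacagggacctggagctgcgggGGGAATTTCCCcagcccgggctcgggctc
The 11 capitals hold 2 overlapping matches, 1 per strand. The match lay 71, 97 and 73 bases before the start of Cxcl1, Cxcl2 and Cxcl3. No match was found in the 250 bases before the start of Cxcl15, Pf4 or Ppbp, and 1.17% of all promoters held one. Among genes with a listed promoter, a match was in 0 of 10 inflammatory CC chemokine genes. It was in 1 of 16 NF-kB genes and feedback inhibitors and in 3 of 23 type I interferon genes. Ppbp, without a match, had log2 ratios of LPS over PBS of 2.44 in lung and -2.13 in spleen. Whether the letters bear on the response to LPS was not tested.

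The interferon-induced ligands of Cxcr3, a receptor of activated T and natural killer cells, stood at 4244 CPM in lung and 2274 in spleen when summed with the receptor, against 33.8 and 311 CPM in the PBS lung and spleen. Cxcl9 had 1369.5 CPM in lung and 805 in spleen with LPS, against 10.4 and 144 CPM in the PBS lung and spleen. Cxcl10 had 2669 CPM in lung and 1434 in spleen with LPS, against 21.5 and 146 CPM in the PBS lung and spleen. Cxcl11 had 205 CPM in lung and 29.6 in spleen with LPS, against 0.652 and 2.85 CPM in the PBS lung and spleen. Each was thus higher in spleen with PBS, and with LPS the log2 ratios were 0.76, 0.90 and 2.75. Only Cxcl11 of these 3 was at least 2-fold higher in lung with LPS. Cxcr3 itself was under the limit, with 0.290 CPM in lung and 4.37 CPM in spleen.

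Inflammatory CC chemokines were split. Of 16 measured 6 were at least 2-fold higher in lung, 2 in spleen and 2 under 5 CPM in both. At least 2-fold higher with LPS than with PBS were 13 in lung (9.48% of all entries were) and 10 in spleen (7.01%). Ccl5, a chemokine of T cells and natural killer cells, had the lowest ratio, with 167 CPM in lung and 656 in spleen with LPS, against 11.6 and 117 CPM in the PBS lung and spleen. Ccl22 and Ccl17, ligands of Ccr4 on regulatory and helper T cells, were higher in lung. Ccl22 had 304 CPM in lung and 77.8 in spleen with LPS, against 15.0 and 25.6 CPM in the PBS lung and spleen. Ccl17 had 65.2 CPM in lung and 3.00 in spleen with LPS, against 4.68 and 0.258 CPM in the PBS lung and spleen, the largest ratio of the list at 4.05. Ccl3, a chemokine of monocytes, was near equal, with 187 CPM in lung and 141 CPM in spleen.

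Chemokines and receptors of tissue homeostasis were evenly divided. Of 15 measured 6 were at least 2-fold higher in lung, 6 in spleen and 3 under 5 CPM in both. Cxcl14, an epithelial chemokine, had 173 CPM in lung and 3.26 CPM in spleen, and Cxcr5, the follicle-homing receptor of B cells, 10.9 CPM in lung and 241 CPM in spleen. S1pr1, a sphingosine phosphate receptor of endothelium and lymphocytes, had 889.7 CPM in lung and 85.0 in spleen with LPS, against 336 and 175 CPM in the PBS lung and spleen. Cxcl16, a membrane-bound chemokine, had 376 CPM in lung and 136 CPM in spleen.

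**Figure D3:**
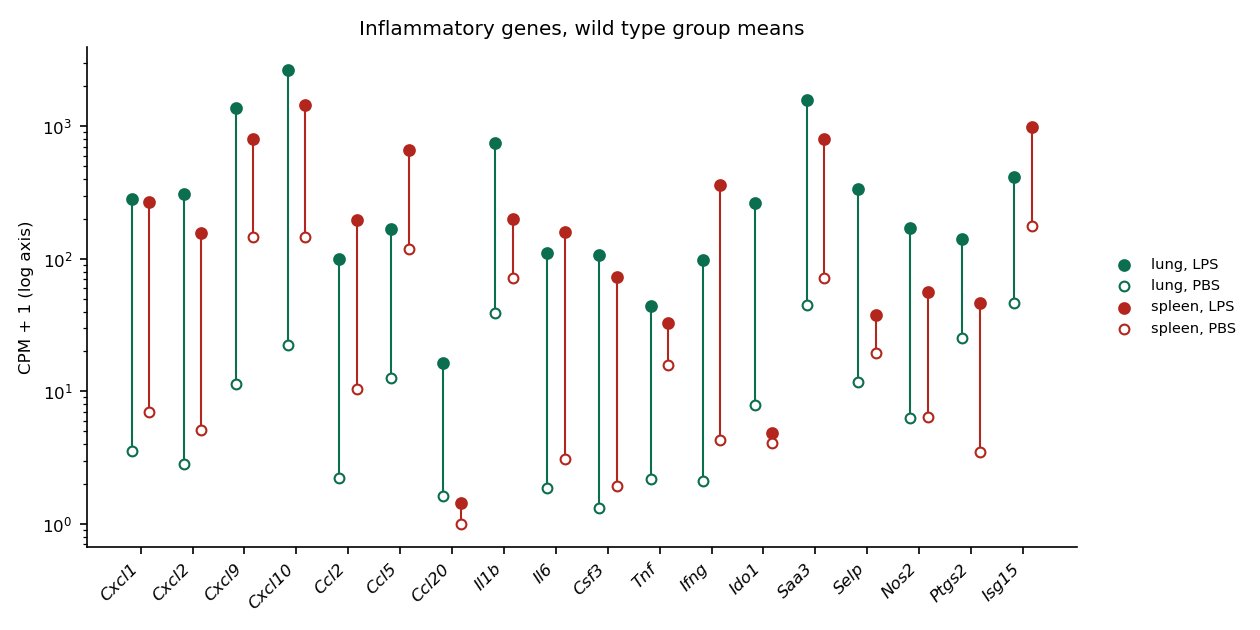
Group means of 18 inflammatory genes in wild type lung (left of each pair) and spleen, with LPS (filled) and with PBS (open), CPM plus 1 on a log axis. All 18 lie higher with LPS than with PBS in both organs. Ido1, Ccl20 and Selp are more than 8-fold higher in lung with LPS, and Ccl5, Ifng and Isg15 are higher in spleen.

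Interleukin 1 genes were the cytokine family most often higher in lung among the 5 described here. Of 13 measured 9 were at least 2-fold higher in lung and 1 in spleen, with a median of 1.08, against -0.91 with PBS. Mutant and knockout mice with PBS had medians of -0.073 and -0.098. Il1b had 743 CPM in lung and 199 in spleen with LPS, against 37.7 and 70.1 CPM in the PBS lung and spleen. Il1rn, the receptor antagonist, had 959.6 CPM in lung and 469 in spleen with LPS, against 18.1 and 65.2 CPM in the PBS lung and spleen. Il1r2, the decoy receptor, had 329.9 CPM in lung and 92.5 in spleen with LPS, against 9.16 and 18.1 CPM in the PBS lung and spleen. These 3 genes were thus higher with LPS in both organs and by more in lung. Il36g, an epithelial member, had the highest ratio, 2.83, and Il18, which inflammasomes activate, was the one higher in spleen, with 14.5 CPM in lung and 84.4 CPM in spleen.

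In the interleukin 6 family 4 of 12 genes were at least 2-fold higher in lung and 3 in spleen, against 24.6% and 20.6% of all entries. Il6 had 110.0 CPM in lung and 159 in spleen with LPS, against 0.861 and 2.07 CPM in the PBS lung and spleen, a log2 ratio of -0.53. The shared receptor chain Il6st had 768 CPM in lung and 195 CPM in spleen, and Osmr, the oncostatin M receptor, 707 CPM in lung and 116 CPM in spleen, the highest ratio at 2.60. The subunit Il27, a cytokine of antigen-presenting cells, had the lowest ratio, with 6.21 CPM in lung and 45.6 CPM in spleen. So Il6 itself was within 2-fold, while Il6st and Osmr were at least 2-fold higher in lung.

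Of 10 growth factors and receptors of myeloid cells 4 were at least 2-fold higher in lung and 0 in spleen. Csf2, which macrophages and granulocytes respond to, had 34.3 CPM in lung and 2.17 in spleen with LPS, against 1.76 and 1.01 CPM in the PBS lung and spleen, a log2 ratio of 3.48. Csf1, the macrophage factor, had 394 CPM in lung and 149 CPM in spleen, and Csf3r, the neutrophil growth factor receptor, 206 CPM in lung and 61.2 CPM in spleen. The receptor chain Csf2rb had 173 CPM in lung and 128 CPM in spleen and its mouse copy Csf2rb2 43.7 CPM in lung and 44.7 CPM in spleen, and their reads may be shared.

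Interferon gamma went the other way. Ifng had 97.3 CPM in lung and 362 in spleen with LPS, against 1.10 and 3.30 CPM in the PBS lung and spleen, a log2 ratio of -1.89 with LPS. Among 20 helper cytokine genes and receptors 3 were at least 2-fold higher in spleen, 1 in lung and 8 under 5 CPM in both. The receptor chain Ifngr1 was higher in lung, with 307 CPM in lung and 109 CPM in spleen. Il12rb1, a receptor chain for interleukin 12, had the lowest ratio, with 1.52 CPM in lung and 14.7 CPM in spleen, and Il10ra, the interleukin 10 receptor, had 89.6 CPM in lung and 153 CPM in spleen. In the TNF superfamily 4 of 16 genes were at least 2-fold higher in lung, 2 in spleen and 5 under 5 CPM in both. The shares over all entries were 24.6% in lung and 20.6% in spleen. Tnfsf10, the death ligand TRAIL, had 345 CPM in lung and 54.8 CPM in spleen, and Ltb, lymphotoxin beta of lymphocytes, 12.3 CPM in lung and 123 CPM in spleen. Tnf, named after its values were seen, had 42.8 CPM in lung and 31.5 in spleen with LPS, against 1.18 and 14.7 CPM in the PBS lung and spleen.

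The sensors of LPS were listed in both organs. Of 22 genes of LPS and Toll-like receptor sensing 8 were at least 2-fold higher in lung, 5 in spleen and 2 under 5 CPM in both. The shares over all entries were 24.6% in lung and 20.6% in spleen. Lbp, the plasma protein that hands LPS to CD14, had the highest ratio, with 122 CPM in lung and 12.7 CPM in spleen. Cd14 had 562 CPM in lung and 260.0 in spleen with LPS, against 34.7 and 58.7 CPM in the PBS lung and spleen. Tlr2, a receptor of bacterial lipoproteins, had 279 CPM in lung and 54.6 CPM in spleen, and Myd88, the adaptor, 229.9 CPM in lung and 124 CPM in spleen. Tlr9, the receptor of unmethylated DNA in B cells and plasmacytoid cells, had the lowest ratio, with 5.83 CPM in lung and 73.5 CPM in spleen. Tlr4, the LPS receptor chain, singled out for its role, had 33.3 CPM in lung and 8.61 in spleen with LPS, against 17.6 and 28.5 CPM in the PBS lung and spleen.

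NF-kB genes and their feedback inhibitors lay mostly within 2-fold. Of 19 genes 3 were at least 2-fold higher in lung, 3 in spleen and 13 within 2-fold, against 24.6% and 20.6% of all entries at least 2-fold apart. At least 2-fold higher with LPS than with PBS were 18 in lung (9.48% of all entries were) and 14 in spleen (7.01%). Nfkbia, the inhibitor that NF-kB itself induces, had 949.7 CPM in lung and 731 in spleen with LPS, against 137 and 214 CPM in the PBS lung and spleen. Tnfaip3, the ubiquitin editor A20, had 733 CPM in lung and 535 in spleen with LPS, against 27.6 and 73.8 CPM in the PBS lung and spleen. Both genes were thus within 2-fold with LPS. Dusp1, a phosphatase of stress kinases, had the highest ratio, 1.43, and Nfkbid, an atypical inhibitor of lymphocytes, the lowest, -1.90.

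Interferon-stimulated genes lay around equality. Of 32 measured 3 were at least 2-fold higher in lung, 3 in spleen, and 1 was under 5 CPM in both. The median log2 ratio was 0.12, against -0.94 with PBS. In mutant and knockout mice with PBS the median was -0.34 and -0.31. The summed spleen level with PBS was 6236 CPM in wild type, 2805 in mutant and 2726 in knockout mice. At least 2-fold higher with LPS than with PBS were 30 in lung (9.48% of all entries were) and 26 in spleen (7.01%). Rsad2, the antiviral enzyme viperin, had 1929 CPM in lung and 1803 in spleen with LPS, against 58.8 and 592 CPM in the PBS lung and spleen. Ifit1, which binds foreign RNA ends, had 1789 CPM in lung and 1132 in spleen with LPS, against 172 and 263 CPM in the PBS lung and spleen. Ifit3, its partner, had 1869 CPM in lung and 897 CPM in spleen. The extremes of the list were Ifit2, with 1179.6 CPM in lung and 303 CPM in spleen, a log2 ratio of 1.96, and Isg15, the ubiquitin-like modifier, with 412 CPM in lung and 993 CPM in spleen, a log2 ratio of -1.27. Ifnb1, interferon beta, was the member under the limit, with 0.0664 CPM in lung and 0.0980 in spleen. Oasl1 and Bst2 were also at least 2-fold higher in spleen after scaling, and near 0, at 0.018 and 0.0064 on the log2 scale, when the deposited means were left unscaled.

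Guanylate-binding proteins and related GTPases are induced by interferon gamma and type I interferon against intracellular microbes. Of 15 measured genes 5 were at least 2-fold higher in lung and 0 in spleen, against 24.6% and 20.6% of all entries. The median of these GTPases was 0.90, against -0.91 with PBS. In mutant and knockout mice with PBS it was -0.25 and -0.024. Their summed spleen level with PBS was 2836 CPM in wild type, 1237 in mutant and 1251 in knockout mice. Gbp2 had 3399 CPM in lung and 1811 in spleen with LPS, against 244 and 444 CPM in the PBS lung and spleen. Iigp1 had 2019 CPM in lung and 818 in spleen with LPS, against 142 and 299 CPM in the PBS lung and spleen. Gbp10 had the highest ratio, 1.83, and Gbp8 the lowest, -0.039. Every one of the 15 was at least 2-fold higher with LPS than with PBS in lung, against 9.48% of all entries. In spleen 13 were, against 7.01%. Members of this family are alike in sequence and may share reads.

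The starts of Isg15 and Ifit1 are shown for the interferon response letters, in capitals: GAAA, any letters at the next 2 places (NN), then GAAA. In Ifit1 they lie on the opposite strand, as TTTC, NN and TTTC. Each stretch runs from 120 to 45 bases before the RefSeq start of GRCm38.p6, for Isg15 on the minus strand at chr4:156200863-156200938 and for Ifit1 on the plus strand at chr19:34640769-34640844.
Isg15: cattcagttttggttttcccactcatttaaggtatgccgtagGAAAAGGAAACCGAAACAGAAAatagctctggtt
Ifit1: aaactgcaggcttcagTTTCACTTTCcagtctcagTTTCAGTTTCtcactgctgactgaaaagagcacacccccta
Isg15 held 3 matches, each overlapping the next, whose first letters lie between 78 and 66 bases before the start, and Ifit1 held 2, at 104 and 85 bases. The letters, on either strand of the 250 bases before the start, were in 9 of 10 GTPase genes and 10 of 23 type I interferon genes with a promoter in the table, and in 3.04% of all promoters. Isg15 was higher in spleen and Ifit1 within 2-fold.

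Acute phase genes were higher in lung in 11 of 18 measured cases and in spleen in 0, with 1 under 5 CPM in both. The median was 1.78, against -0.36 with PBS. Mutant and knockout mice with PBS had medians of 0.13 and 0.65. Lcn2, lipocalin 2, which starves bacteria of iron, had 2949 CPM in lung and 1198 in spleen with LPS, against 153 and 206 CPM in the PBS lung and spleen. Saa3, the serum amyloid A made outside the liver, had 1589 CPM in lung and 797 CPM in spleen. Itih4, an inter-alpha-trypsin inhibitor chain, had the highest ratio, with 211 CPM in lung and 6.50 CPM in spleen, a log2 ratio of 4.82. Serpina3g, a serine protease inhibitor of haematopoietic cells, had the lowest, with 985 CPM in lung and 1741 CPM in spleen. Saa1 and Saa2, near-identical copies of liver and epithelium, had 3.42 and 2.69 as log2 ratios. Hepatocyte markers moved the same way, with a median log2 ratio of -0.092 with LPS and -2.41 with PBS. Their sums in lung were 121 CPM with LPS and 129 CPM with PBS, and in spleen 112 CPM with LPS and 747 CPM with PBS. Saa1, Saa2, Serpina3m and Itih4 are made chiefly in the liver, and the part of hepatocyte RNA in these ratios was not tested.

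Complement genes stood on both sides. Of 19 genes 7 were at least 2-fold higher in lung and 6 in spleen. C7, a terminal component, had 329.9 CPM in lung and 3.96 CPM in spleen, a log2 ratio of 6.06. C3, the central component, had 2309 CPM in lung and 1677 CPM in spleen, and Cfb, factor B of the alternative pathway, 613 CPM in lung and 573 CPM in spleen. Serping1, the C1 inhibitor, had 779 CPM in lung and 381 CPM in spleen. The macrophage-made C1qa, C1qb and C1qc, which the red pulp list shares, had log2 ratios of -3.26, -2.95 and -2.96.

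Of 18 clotting and fibrinolysis genes 10 were at least 2-fold higher in lung and 1 in spleen. Plat, tissue plasminogen activator, had 225 CPM in lung and 14.3 CPM in spleen, a log2 ratio of 3.88. Procr, the endothelial protein C receptor, was the one higher in spleen, with 28.7 CPM in lung and 174 CPM in spleen. Thbs1, thrombospondin 1, had 922 CPM in lung and 419.8 CPM in spleen, and Anxa2, a plasminogen receptor, 717 CPM in lung and 460.3 CPM in spleen.

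Among 18 adhesion genes 9 were at least 2-fold higher in lung and 3 in spleen, and 1 was under 5 CPM in both. Selp, P-selectin, which captures leukocytes from blood, had 335 CPM in lung and 36.9 in spleen with LPS, against 10.8 and 18.6 CPM in the PBS lung and spleen. It differed by 3.89 on the log2 scale between the LPS and the PBS ratio. Icam1, an integrin ligand on endothelium, had 1539 CPM in lung and 586 in spleen with LPS, against 531 and 159 CPM in the PBS lung and spleen.

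The series is about lincRNA-Cox2, whose neighbour makes prostanoids. Ptgs2, cyclooxygenase 2 (chr1:150100031-150108227, GRCm38, protein-coding), had 139.6 CPM in lung and 45.6 in spleen with LPS, against 24.2 and 2.48 CPM in the PBS lung and spleen, a log2 ratio of 1.59 with LPS and 2.85 with PBS. The lincRNA-Cox2 gene, named Ptgs2os2 in GENCODE (chr1:150159043-150164948, minus strand, lincRNA), stood under the limit of 5 CPM, with 3.02 CPM in lung and 0.752 in spleen with LPS, against 4.46 and 0.595 CPM in the PBS lung and spleen. Of 19 genes of prostanoid and leukotriene synthesis and reception 9 were at least 2-fold higher in lung, 4 in spleen and 2 under 5 CPM in both. Their median log2 ratio with LPS was 1.06 in wild type, 0.50 in mutant and -0.045 in knockout mice. With PBS it was -0.32 in wild type mice and 0 in mutant and knockout mice. Ptges, the inducible prostaglandin E synthase, had 169.9 CPM in lung and 64.4 CPM in spleen, and Ptgs1, cyclooxygenase 1, the highest ratio, with 69.5 CPM in lung and 15.5 CPM in spleen. Hpgds, the haematopoietic prostaglandin D synthase, had the lowest, with 0.847 CPM in lung and 12.2 CPM in spleen. Ptges3, a cochaperone and E synthase of every cell, had 221 CPM in lung and 335 CPM in spleen.

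Of 12 genes of nitric oxide and arginine 3 were at least 2-fold higher in lung, 0 in spleen and 2 under 5 CPM in both. Over all entries 24.6% were higher in lung and 20.6% in spleen. Nos2, the inducible synthase, had 169 CPM in lung and 54.8 in spleen with LPS, against 5.29 and 5.45 CPM in the PBS lung and spleen. Arg2, mitochondrial arginase, had 80.1 CPM in lung and 10.4 CPM in spleen, a log2 ratio of 2.82. Acod1, which makes itaconate in activated macrophages, had 523 CPM in lung and 264 in spleen with LPS, against 4.47 and 19.3 CPM in the PBS lung and spleen. Slc7a2, an arginine transporter, had 112 CPM in lung and 196 CPM in spleen. Matrix proteases and their inhibitors were higher in lung in 11 of 17 cases and in spleen in 1. That one was Mmp13, a collagenase, with 37.1 CPM in lung and 364 in spleen with LPS, against 2.52 and 6.34 CPM in the PBS lung and spleen, a log2 ratio of -3.26. Timp3, a matrix-bound inhibitor, had 3749 CPM in lung and 335 CPM in spleen, and Timp1, an induced inhibitor, 174 CPM in lung and 241 CPM in spleen.

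Stress hormone targets were higher in lung. Of 12 glucocorticoid-responsive genes and metallothioneins 9 were at least 2-fold higher in lung and 0 in spleen, with a median of 1.34. Zbtb16, a zinc finger factor that glucocorticoids induce, had 243 CPM in lung and 28.3 in spleen with LPS, against 42.7 and 7.26 CPM in the PBS lung and spleen. Cdkn1a, the cell cycle inhibitor p21, had 611 CPM in lung and 135 in spleen with LPS, against 71.0 and 33.2 CPM in the PBS lung and spleen. The metallothioneins Mt1 and Mt2 were within 2-fold, with log2 ratios of -0.38 and -0.25. At least 2-fold higher with LPS than with PBS were 9 of these in lung (9.48% of all entries) and 7 in spleen (7.01%). Glycolysis and hypoxia genes gave 2 of 16 at least 2-fold higher in lung and 0 in spleen. Pfkfb3, which drives glycolysis, had 1459.5 CPM in lung and 416 in spleen with LPS, against 189.7 and 169 CPM in the PBS lung and spleen, and Hif1a, the hypoxia factor, 713 CPM in lung and 364 CPM in spleen.

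Of 15 checkpoint and costimulatory genes 9 were at least 2-fold higher in spleen and 3 in lung. Btla, an inhibitory receptor of lymphocytes, had 29.4 CPM in lung and 189.9 CPM in spleen, and Lag3, another, the lowest ratio at -2.90. Ido1, which degrades tryptophan, was far higher in lung, with 265 CPM in lung and 3.86 in spleen with LPS, against 6.84 and 3.05 CPM in the PBS lung and spleen, a log2 ratio of 5.77. Cd274, the ligand PD-L1, had 1379.5 CPM in lung and 648 in spleen with LPS, against 62.7 and 119.6 CPM in the PBS lung and spleen. Havcr2, the receptor TIM-3, was the third gene higher in lung, with 9.10 CPM in lung and 3.58 CPM in spleen. It passed the limit of 5 CPM through lung alone, so its side says little.

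Neutrophil transcripts were higher in the lung with LPS than with PBS. Of 17 genes of mature neutrophils 12 were at least 2-fold higher in lung with LPS and 0 in spleen. Their median was 1.48, against -0.91 with PBS. Mutant and knockout mice with PBS had medians of -0.073 and -0.14. Cxcr2 had 154 CPM in lung and 18.1 in spleen with LPS, against 25.2 and 52.5 CPM in the PBS lung and spleen, and S100a9, a subunit of calprotectin, 669.8 CPM in lung and 386 in spleen with LPS, against 127 and 383 CPM in the PBS lung and spleen. In lung 16 of 17 were at least 2-fold higher with LPS than with PBS, against 9.48% of all entries. In spleen 3 were, against 7.01%. Genes of immature granules had a median of 0.21, against -3.44 with PBS, with 3 of 12 at least 2-fold higher in lung, 1 in spleen and 1 under 5 CPM in both. Ngp, a granule protein of maturing neutrophils, had 489.8 CPM in lung and 371 in spleen with LPS, against 4.31 and 458 CPM in the PBS lung and spleen. Mmp8, neutrophil collagenase, had 328 CPM in lung and 36.4 in spleen with LPS, against 17.4 and 35.2 CPM in the PBS lung and spleen, and Fcnb, ficolin B, the lowest ratio with LPS, -1.41. At least 2-fold higher with LPS than with PBS were 9 of 12 in lung (9.48% of all entries) and 1 in spleen (7.01%).

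Monocyte genes had a median of 1.22, against -0.082 with PBS. Of 14 monocyte genes 9 were at least 2-fold higher in lung with LPS, 0 in spleen and 2 under 5 CPM in both. Mutant and knockout mice with PBS had medians of 0.18 and 0.16. Lyz2, lysozyme, which alveolar type 2 cells also make, had 2119 CPM in lung and 305 CPM in spleen, and Ly6c1, an antigen that endothelium shares, 879 CPM in lung and 137 CPM in spleen. Csf1r, the receptor of macrophage growth factor, had 110.0 CPM in lung and 92.3 in spleen with LPS, against 176 and 394 CPM in the PBS lung and spleen. Platelet genes had a median of -0.25, against -2.86 with PBS. In lung 13 of 16 were at least 2-fold higher with LPS than with PBS, against 9.48% of all entries. In spleen 11 were at least 2-fold lower, against 18.7%. Itgb3, the beta chain of the fibrinogen receptor, had 151 CPM in lung and 101 in spleen with LPS, against 41.3 and 172 CPM in the PBS lung and spleen, and Gp1bb, a von Willebrand receptor chain, the lowest ratio with LPS, -1.57. Mast cell and basophil genes rested on few transcripts, with 5 of 10 under 5 CPM in both. Kit, the stem cell factor receptor, had 199 CPM in lung and 35.2 CPM in spleen, and Hdc, histidine decarboxylase, which neutrophils share, 467 CPM in lung and 83.7 CPM in spleen. Gata2, a factor that endothelium shares, had 45.6 CPM in lung and 15.5 CPM in spleen. Cpa3, a protease of mast cell granules, had 1.54 CPM in lung and 5.63 CPM in spleen, and Mcpt4, a chymase, 0.275 CPM in lung and 5.24 CPM in spleen. Cpa3 and Mcpt4 passed the limit of 5 CPM through their spleen values alone, so their side says little. Kit, Hdc and Gata2 passed it in both tissues.

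Set against PBS, the tissue ratio of wild type mice moved by at least 2-fold upward (toward lung) in 1721 of the 12547 entries (13.7%) and downward in 1233 (9.83%). The 8 largest upward moves among genes with 50 or more CPM in any of the 4 groups were Ngp, Mpo, Saa1, Saa2, Camp, Ido1, Ppbp and Serpina3m. Mpo, myeloperoxidase, had 31.0 CPM in lung and 30.7 in spleen with LPS, against 0.465 and 95.6 CPM in the PBS lung and spleen, a difference of 6.06 between the log2 ratios. Camp, the antimicrobial cathelicidin, had 42.8 CPM in lung and 75.4 in spleen with LPS, against 0.222 and 94.2 CPM in the PBS lung and spleen, a difference of 5.48. Saa1 had 132 CPM in lung and 11.4 in spleen with LPS, against 1.40 and 10.6 CPM in the PBS lung and spleen, a difference of 5.70, and hepatocyte markers moved upward too, as given with the acute phase genes. Ido1 had a difference of 4.82, with lung levels more than 8-fold apart and spleen levels within 2-fold between LPS and PBS. The 8 largest downward moves were all acinar genes: Ctrb1, Cela3b, Cpa1, Cela2a, Pnlip, Sycn, Try4 and Prss2, with differences of -8.41 to -6.25. In mutant and knockout mice the difference was -0.36 and -0.084 for Ctrb1, and 0.11 and -0.66 for Pnlip. The acinar list had median differences of -6.07 in wild type, 0.081 in mutant and -0.59 in knockout mice. Of the upward moves, Ngp had 4.67 and 6.59 in mutant and knockout mice, and Ido1 4.17 and 4.92. Saa2 had 0.57 and 0.94 there, and Serpina3m -0.33 and -0.19. The PBS and LPS groups also differ in sex-linked transcripts. Xist, expressed from the inactive X chromosome, had 1.45 CPM in lung and 6.67 in spleen with LPS, against 469 and 690.1 CPM in the PBS lung and spleen. Ddx3y, a Y-linked gene listed as 2 entries, had 85.9 CPM in the LPS lung and 120.4 in the LPS spleen for its first entry, against 31.7 and 41.1 CPM in the PBS lung and spleen. The part of sex in these differences was not tested.

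**Figure D4:**
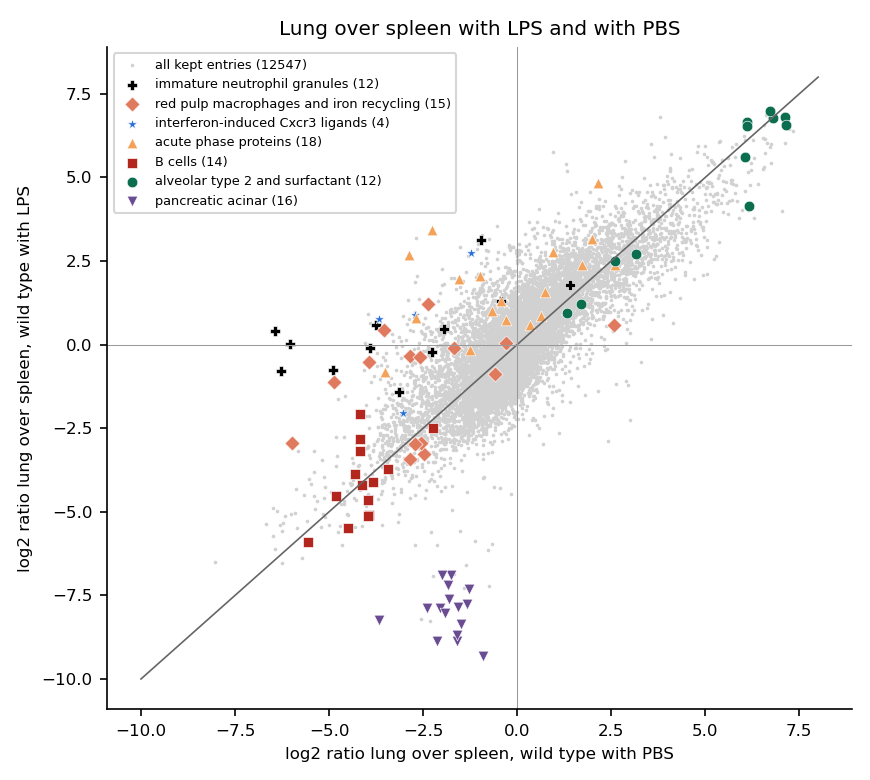
Log2 ratio of lung over spleen in wild type mice with LPS (vertical) against the same ratio with PBS (horizontal) for the 12547 entries, with 7 gene lists marked. The line marks equal ratios, and 13.7% of all entries lie at least 2-fold above it and 9.83% below it. Most surfactant and B cell genes lie close to it, 11 of 12 immature neutrophil, 8 of 15 red pulp, 3 of 4 Cxcr3 and 13 of 18 acute phase genes at least 2-fold above it, and all 16 acinar genes at least 2-fold below it.

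Sides taken with LPS were largely those seen with PBS where the difference was large. Of the 592 entries at least 8-fold higher in lung with LPS, 561 (94.8%) were at least 2-fold higher there with PBS, and of the 295 at least 8-fold higher in spleen, 282 (95.6%). Of the 3089 entries at least 2-fold higher in lung with LPS, 1912 (61.9%) were so with PBS, where 17.7% of all entries were, and 66 were at least 2-fold higher in spleen. Of the 2586 at least 2-fold higher in spleen, 1411 (54.6%) were so with PBS, where 17.1% of all entries were, and 15 were at least 2-fold higher in lung.

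The same ratio was computed in the mutant and knockout mice, whose values did not choose the entries. Of the 3089 entries higher in wild type lung, 2755 (89.2%) were at least 2-fold higher in mutant lung and 2352 (76.1%) in knockout lung, where 24.8% and 21.1% of all entries were. Of the 2586 higher in wild type spleen, 2125 (82.2%) were so in mutant and 1644 (63.6%) in knockout spleen, where 18.8% and 15.0% of all entries were. At least 2-fold the other way were 0 and 1 of the lung entries and 0 and 2 of the spleen entries in mutant and knockout mice. In all 3 genotypes 2221 (71.9%) of the lung entries and 1547 (59.8%) of the spleen entries kept their side.

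**Figure D5:**
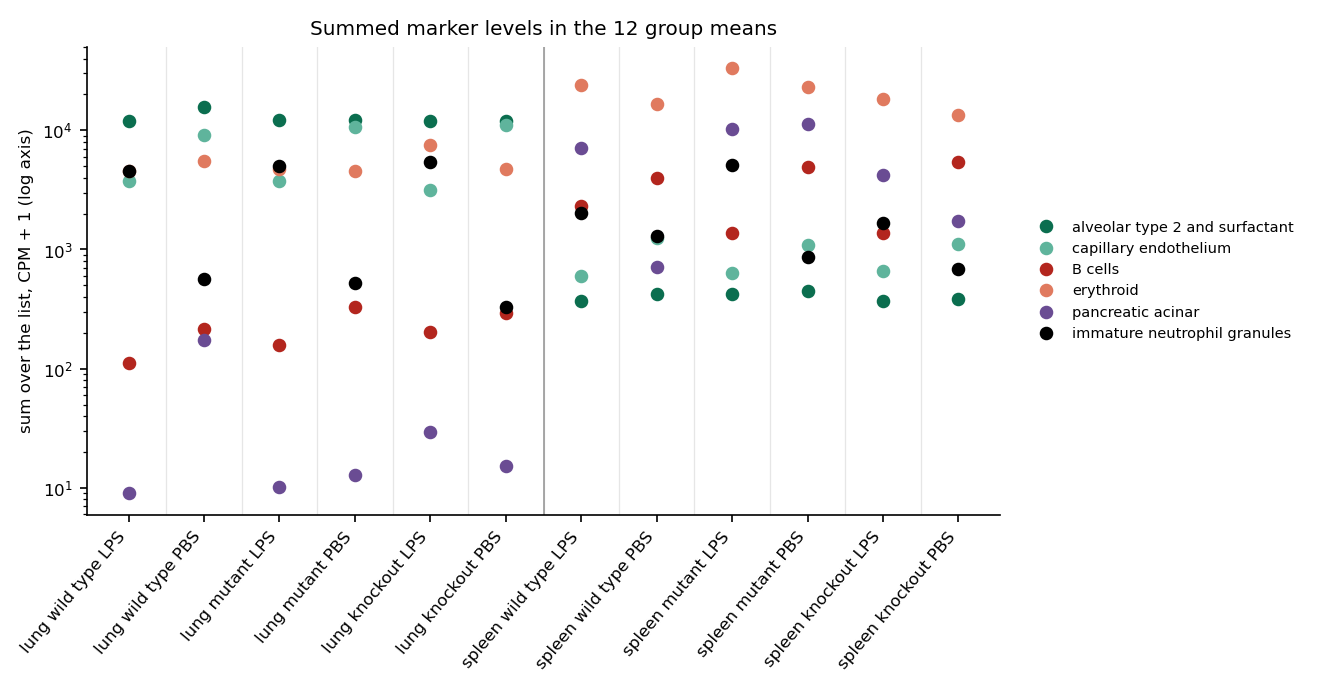
Summed level of 6 marker lists in each of the 12 group means, CPM plus 1 on a log axis, with lung groups left of the line and spleen groups right of it. Surfactant sums in lung lie between 11862 and 15647 CPM, acinar sums differ by more than 10-fold between groups of either organ, and immature neutrophil sums are more than 8-fold higher with LPS than with PBS in the lung of each genotype.

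Some list medians were unlike between genotypes, and no test bears on them here. B cell genes had a median of -4.16 in wild type, -2.99 in mutant and -2.81 in knockout mice with LPS. The 5 genes of 50 or more CPM whose wild type ratio lay lowest against the nearer of the other genotypes were Cd79b, Faim3, Cr2, Cd79a and H2-Ob. Cd79b, the second signalling chain of the B cell receptor, had a log2 ratio of -4.20 in wild type, -2.10 in mutant and -1.22 in knockout mice. The 5 that lay highest were Itih4, Serpina3m, Saa2, Mat1a and Saa1. Itih4 had 4.82 in wild type, 2.28 in mutant and 2.49 in knockout mice. Of these 5 all but Mat1a, an enzyme of methionine metabolism, are acute phase or protease inhibitor genes. Mat1a had 3.64 CPM in wild type, 25.7 in mutant and 14.4 in knockout spleen with LPS. The hepatocyte sums with LPS were 112, 917 and 1446 CPM in spleen and 121, 190 and 663 CPM in lung, in the same order. The part of hepatocyte RNA in these 5 ratios was not tested. Hepatocyte genes had medians of -0.092 in wild type, -2.37 in mutant and -1.26 in knockout mice, and immature neutrophil genes 0.21, -2.04 and 0.87. In the authors' deposited table, few of the 12547 entries passed an adjusted p of 0.05 between genotypes with LPS: 10 in lung and 1 in spleen for mutant over wild type, and 65 and 4 for knockout over wild type. The mutant LPS groups had Xist at 428 CPM in lung and 930.1 in spleen, against 1.45 and 6.67 in wild type, so genotype and sex-linked transcripts cannot be told apart there.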

How the data were processed

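Per the file headers, the authors deposited for each tissue a normalized signal per gene, the mean over a group's libraries under the name of a base mean, which in DESeq2 is counts divided by size factors. Most values were rounded to 3 digits before they were deposited. Per the submitters' processing notes, STAR 2.5.3a, Bowtie2, SAMtools, bedtools and DESeq2 were used with the mm10 genome, without order or settings. The authors' deposited table also gives a log2 fold change and an adjusted p-value, read as a score since a few lines have broken cells, for each genotype comparison. Depth per library is not given in the sources used here.

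Of 19476 lung and 18850 spleen lines, 6 and 5 without a cluster identifier were left out, 1026 spleen symbols split between 2 cells were rejoined, and 25 and 24 symbols turned into dates were left unnamed. Means weighted by libraries matched the deposited overall means within ratios of 0.9939 to 1.0069. Entries were joined by their cluster identifier, each group mean was scaled to a sum of 1000000, entries with 5 or more CPM in either wild type LPS group were kept, and log2 ratios used a pseudocount of 1. No test was run between the tables, which were normalized apart and hold no replicates. The ratio step was tested on simulated data. Repeated symbols stay separate entries. Promoters are from RefSeq (GRCm38.p6), 1 start per gene, and positions from GENCODE M21; whether strand was used in counting is not given in the sources used here, so antisense genes are uncertain, as are near-identical copies. Values were computed with Python 3.11.15, numpy 2.4.6 and pandas 2.3.3.

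The entries and the 60 gene lists were chosen with earlier results of these data known. The genes described were taken by rule: the 10 largest and 10 smallest ratios with 100 or more CPM; in each list all members where 8 or fewer were kept, otherwise the 3 with the highest mean of both tissues, the highest and the lowest ratio; the 8 per side whose ratio differed most from PBS and the 5 per side that differed most from the other genotypes, with 50 or more CPM; and lincRNA-Cox2 and Ptgs2. The markers that check the labels, the genes whose promoters are printed, and other genes named in the text or the plot of inflammatory genes stand outside the rule and were chosen after their values were seen. List medians and counts cover all measured members.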

Additional observations from a re-analysis of the deposited data

How the results depend on the processing

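The 8 counts of entries at least 2-fold apart (4 comparisons, higher in lung and higher in spleen), 754 genes and 60 list medians were recomputed under 9 alternatives: pseudocounts of 0.1 and 5, limits of 1 and 20 CPM, the median ratio set to 0, sums without the 50 highest entries or without hemoglobin and immunoglobulin entries, the deposited means unscaled, and entries of 1 table kept at 0 in the other. With a limit of 20 CPM, which tests fewer entries, 1710 entries were higher in lung in knockout mice and 1392 in wild type mice with PBS. With the deposited means unscaled, the counts higher in lung and in spleen were 6662 and 997 in wild type, 6852 and 943 in mutant and 6883 and 604 in knockout mice with LPS, and 6325 and 928 in wild type mice with PBS. Ratios then rise, since the lung sums are larger, and Nfkbie (0.022), Oasl1 (0.018), Bst2 (0.0064), Psmb10 (0.027) and Il7r (0.012) came to lie above 0; no other of the 754 genes that was past 2-fold changed sign under any of the 9. A pseudocount of 5 took 40 genes and 4 of the 31 list medians past 2-fold below it. The share of differing entries higher in lung was 52.3% to 55.0% under the other alternatives. No paired analysis was possible because the columns are group means without replicates, and for the same reason no replicate could be left out. What limits the ratios is the unknown spread between libraries, 3 per LPS group and 2 per PBS group, and for genes near 5 CPM the few normalized counts behind them.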

Other observations

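Entries listed in 1 table alone were left out of the comparison, and 15 of them passed 5 CPM in the tissue that lists them, 13 in lung and 2 in spleen. Sox2, a transcription factor of airway epithelium, had 14.1 CPM in lung, the highest of these. Ccdc37 and Wdr16, genes of motile cilia, had 9.37 and 6.56 CPM in lung. The 2 in spleen were Reg3a, a lectin of the pancreas and gut, with 8.72 CPM, and Nkx2-3, a homeobox gene needed for spleen vessels, with 8.01 CPM.

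Some genes outside the lists stood far to the spleen side; they were chosen after their values were seen. Coch, cochlin, had 2.69 CPM in lung and 337 CPM in spleen with LPS and 3.15 and 1084 CPM in the PBS lung and spleen. Dmbt1, a secreted scavenger receptor, had 0.527 CPM in lung and 234 in spleen with LPS, against 2.49 and 8.27 CPM in the PBS lung and spleen, and Sycn, syncollin of zymogen granules, 0.109 CPM in lung and 163 in spleen with LPS, against 2.04 and 4.14 CPM in the PBS lung and spleen. In spleen Dmbt1 had 319 CPM with LPS and 305 with PBS in mutant mice, and 72.0 and 17.2 in knockout mice. The summed acinar levels there were 10199 and 11354 CPM, and 4189.6 and 1746 CPM. The part of pancreatic tissue in the Dmbt1 values was not tested. Mesothelial genes, which both organs carry on their surface, had 3 of 7 at least 2-fold higher in lung, 1 in spleen and 1 under 5 CPM in both. Msln, mesothelin, had 98.4 CPM in lung and 51.6 in spleen with LPS, against 135 and 77.7 CPM in the PBS lung and spleen, and Krt19, a keratin of mesothelium and airway, 60.4 CPM in lung and 11.2 in spleen with LPS, against 169 and 39.4 CPM in the PBS lung and spleen. At least 2-fold lower with LPS than with PBS were 5 of 7 in lung (15.5% of all entries) and 6 in spleen (18.7%). Skeletal muscle genes were near absent, with 10 of 12 under 5 CPM in both tissues. Mb, myoglobin, had 18.9 CPM in lung and 0.458 CPM in spleen, and Tnnt3, fast troponin T, 1.93 CPM in lung and 8.29 CPM in spleen. Mb passed the limit of 5 CPM through lung alone and Tnnt3 through spleen alone, so their sides say little.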
